A study of Rattus norvegicus with 20 samples.

Results

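The 10 genes followed here handle iron in the cell: the transferrin receptors Tfrc and Tfr2, the reductase Steap3, the transporters Slc11a2 and Slc11a1, the ferritin chains Fth1 and Ftl1, the exporter Slc40a1, and the regulators Aco1 and Ireb2. They were found by gene name, or by the current RefSeq symbol of the probe's accession, and account for 15 probes and 10 of the 26316 genes on the array. Of the 10 genes, 7 passed the filter on dim probes, which asked for a signal well above background on at least 4 of the 20 arrays, and 3 (Tfr2, Steap3 and Ireb2) did not.

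Blood of 20 Wistar rats was drawn into an RNA stabiliser, and each sample was labelled with 1 dye (Cy3) and hybridised to 1 Agilent array. Reflux esophagitis, in which stomach contents inflame the esophagus, had been induced by surgery in 4 groups of 4 rats. These groups received omeprazole at 30 mg/kg, STW5 at 2 ml/kg, STW5 at 0.5 ml/kg, or no treatment, and a group of 4 rats had a sham operation. Omeprazole blocks the gastric proton pump, STW5 is a liquid preparation of medicinal plant extracts, and both were given over 7 days ahead of surgery and 10 days following it. Neither the ages of the animals nor what the untreated and sham rats received in place of a drug is given in the sources used here.

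Most iron in the body circulates inside red cells. Tfrc takes up iron-loaded transferrin, Steap3 reduces the iron in the endosome, and Slc11a2 carries it into the cytosol, a route that developing red cells and reticulocytes use heavily to make hemoglobin. Slc11a1 pumps metal out of the phagosome of macrophages and neutrophils, ferritin stores iron in a shell of heavy and light chains, and Slc40a1, ferroportin, releases it to plasma. Aco1 and Ireb2 encode the iron regulatory proteins, which bind the messages of Tfrc, Slc11a2, Slc40a1 and both ferritins and tie their stability or translation to the iron supply.

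Probes of Tfrc, Slc11a1 and Slc11a2 are shown because these genes differed most between rats on their brightest probes (194-fold, 13.1-fold and 7.61-fold). For Tfrc the dimmer probe, which ranged 30.1-fold, is printed in place of the brighter one. All the probes shown are 60 bases long, hold at least 1 open forward frame, and are placed on the rat build rn4 by the scanner files. The dimmer Tfrc probe (chr11:69978846-69980500, minus strand) and the Slc11a1 probe (chr9:73723371-73723827, plus strand) cover 1655 and 457 bases of the genome, so each joins exons across an intron. The Slc11a2 probe used for the comparisons lies at chr7:139099082-139099141 on the minus strand.
Tfrc, dimmer probe: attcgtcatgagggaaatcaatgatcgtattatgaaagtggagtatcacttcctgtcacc
Slc11a1: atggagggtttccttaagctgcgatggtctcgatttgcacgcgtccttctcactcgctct
Slc11a2, brightest probe: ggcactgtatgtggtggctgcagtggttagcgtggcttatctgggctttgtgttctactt

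All levels below are on a log2 scale: the processed signal over the 75th percentile signal of its array. They compare rats for 1 probe and not 1 gene with another. The 75th percentile ran from 71.3 to 308, and 43.1% to 57.4% of probes were well above background. Sham arrays correlated with each other at 0.975 to 0.986 over genes, omeprazole arrays at 0.954 to 0.987, and untreated arrays at 0.877 to 0.95. Untreated rat 2 had the highest neutrophil and the lowest T and B cell marker levels of all 20 arrays, and untreated rat 1 resembled the sham rats. Markers of blood were present: all 16 tested reticulocyte and erythroid genes were above background on all 20 arrays, and 0 of 6 hepatocyte and gut epithelial genes passed the filter. Untreated and sham arrays lay on slide 1, both STW5 groups on slide 2 and omeprazole on slide 3, each slide with 1 scan, so for every treated group set against untreated rats, slide and treatment cannot be told apart. The array titles and the study's design text number the STW5 dose groups in opposite order, and the 8 STW5 columns of the deposited value table follow the arrays of the other dose. The titles were followed here, and which arrays belong to which dose was not settled. The 3 comparisons of a treated group with untreated rats share the same 4 untreated arrays.

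**Figure D1:**
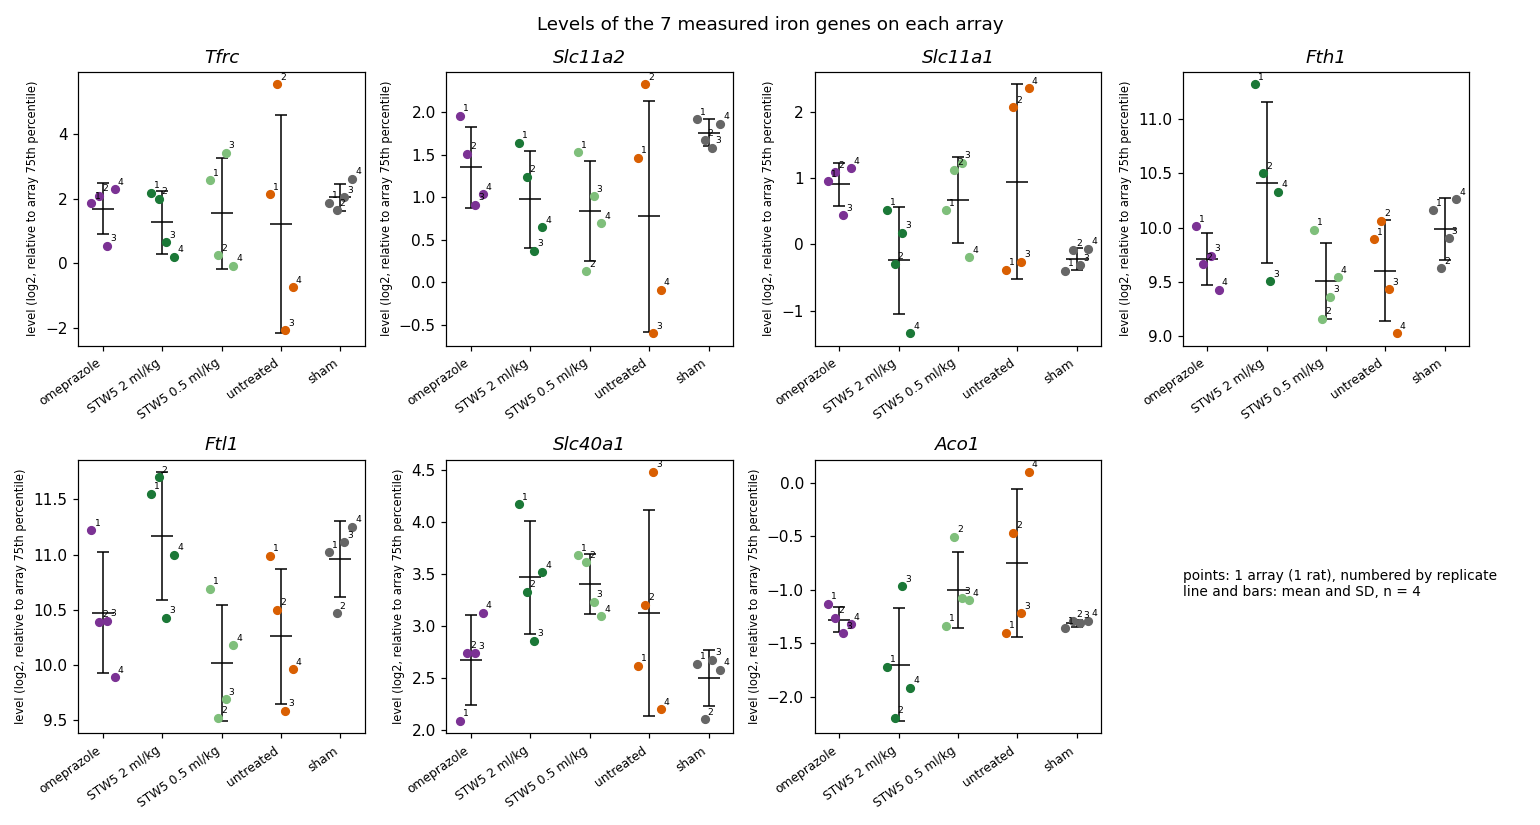
Level (log2, relative to the array's 75th percentile) of the 7 measured iron genes on each of 20 arrays. Points are single rats numbered by replicate, and the line and bars give the mean and SD of 4 rats. The untreated group spans the widest range for Tfrc, -2.07 to 5.53, and sham rats lie closest together for Aco1, -1.36 to -1.29.

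Tfrc, the receptor for iron uptake, had the 40th largest SD within groups of all genes when the 5 groups were pooled, though not in every group. Its brighter probe read 1.86, 2.08, 0.55 and 2.29 in the omeprazole rats. In the rats given STW5 at 2 ml/kg it read 2.19, 2.01, 0.66 and 0.21, and in those given 0.5 ml/kg 2.57, 0.26, 3.43 and -0.07. The untreated rats gave 2.13, 5.53, -2.07 and -0.73, against 1.88, 1.64, 2.04 and 2.62 in sham rats. Untreated rat 2 had the highest Tfrc of all 20 rats, untreated rats 3 and 4 the lowest, and untreated rat 1 lay inside the sham range. Between the extremes, untreated rats 2 and 3, the level differed 194-fold, with processed signals of 7660 and 63.6. The SD over untreated rats was 3.37, the 27th largest of 15260 genes in that group, where the median gene had 0.648. In the STW5 0.5 ml/kg group it was 1.72, the 58th largest. The SD of Tfrc ranked 824th in omeprazole rats, 947th at STW5 2 ml/kg and 4449th in sham rats. In sham rats it was 0.414, against a median gene of 0.303.

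Both Tfrc probes showed this spread. Over the 20 arrays they correlated at Pearson r = 0.881, although the dimmer probe was well above background on 13 arrays only. It read 0.12 in untreated rat 2 and -4.79 in untreated rat 3, where it was not well above background, again the highest and lowest of all. The genes most like Tfrc over the 20 arrays, among 10627 with a symbol, were Pdk3 (r = 0.887), Hbs1l (0.884) and Tlcd4 (0.875), with each array's median over all genes subtracted.

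**Figure D2:**
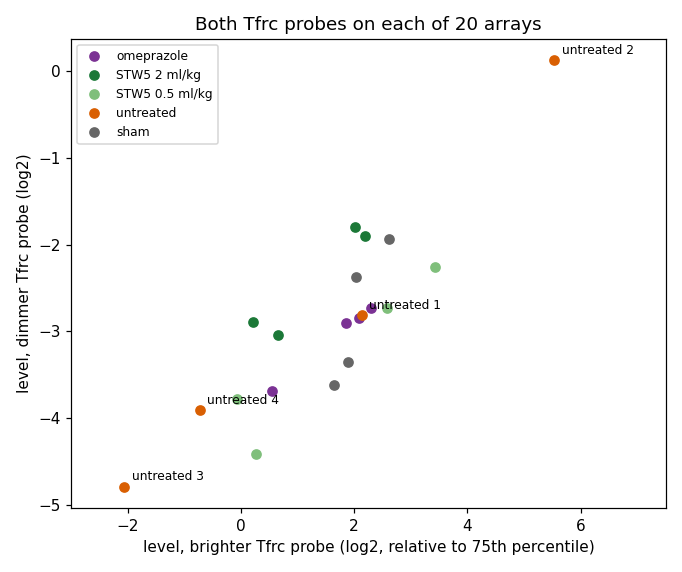
Level of the dimmer Tfrc probe against that of the brighter one (both log2, relative to the array's 75th percentile) on 20 arrays, coloured by group. Untreated rat 2 stands alone at the top right (5.53 and 0.12) and untreated rat 3 at the bottom left (-2.07 and -4.79).

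Slc11a2, also known as DMT1, which moves iron out of the endosome, was most even in sham rats. Its brightest probe read 1.96, 1.51, 0.91 and 1.03 in the omeprazole rats, 1.64, 1.24, 0.37 and 0.65 at STW5 2 ml/kg, and 1.53, 0.13, 1.01 and 0.69 at 0.5 ml/kg. In untreated rats the values were 1.47, 2.33, -0.60 and -0.09, against 1.92, 1.67, 1.58 and 1.86 in sham rats. As for Tfrc, untreated rat 2 was the highest of all 20 rats and untreated rats 3 and 4 the lowest. Over the 20 arrays, Slc11a2 and Tfrc correlated at r = 0.848, and at 0.823 without untreated rat 2. The 3 Slc11a2 probes did not all move together: the brightest correlated at 0.839 with one of the others and at 0.233 with the third, which was highest in untreated rat 2 (0.70) and sham rat 1 (0.24). Ube2j1 (r = 0.959), Borcs7 (0.953) and Cenpb (0.952) were most like the brightest probe.

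Slc11a1, also known as NRAMP1, the phagosomal transporter, was high in part of the untreated rats. It read 0.95, 1.09, 0.44 and 1.16 in the omeprazole rats, 0.52, -0.30, 0.17 and -1.34 at STW5 2 ml/kg, and 0.52, 1.13, 1.23 and -0.19 at 0.5 ml/kg. Untreated rats read -0.38, 2.08, -0.27 and 2.37, against -0.40, -0.09, -0.31 and -0.06 in sham rats. Untreated rats 2 and 4 were the highest of all 20 rats, while untreated rats 1 and 3 fell within the sham range. All 4 omeprazole rats were above all 4 sham rats, which lay on another slide. No test was run for this pair of groups, and the share of all genes so separated was not computed. Tbxas1 (r = 0.966), Ethe1 (0.96) and Trem1 (0.957) were most like Slc11a1.

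Ferritin signals were among the brightest on the arrays. The Ftl1 level was 11.22, 10.39, 10.40 and 9.89 in the omeprazole rats, 11.55, 11.70, 10.43 and 11 at STW5 2 ml/kg, and 10.69, 9.52, 9.69 and 10.18 at 0.5 ml/kg. The untreated rats gave 10.99, 10.50, 9.58 and 9.96, against 11.02, 10.47, 11.11 and 11.25 in sham rats. Before scaling, however, the Ftl1 signal hardly moved: it ran from 204000 to 252000, a 1.23-fold range, while the 75th percentile of the same arrays ranged 4.31-fold. The Ftl1 level therefore followed the percentile it is divided by, at Pearson r = -0.993 over 20 arrays, and its order among rats is mostly that of the arrays' overall signal. Hba-a1 (r = 0.997), Hbb-bs (0.994) and Hbb-b1 (0.993), the hemoglobin genes, were most like it, and the Hba-a1 probes had ranges of 1.23-fold and 1.26-fold. No spot was marked as saturated, and the brightest spot on any array read 451000. The part of the scanner's or probe's range in these flat signals was not tested. The Ftl1 probe also shares 53 bases in a row with the probe of LOC100364138, named as ferritin light chain 1-like, so signal from such a copy cannot be told apart.

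The heavy chain Fth1 moved more before scaling. Its signal ranged 2.02-fold for the brighter probe, from 98100 to 198000, and correlated with the 75th percentile at 0.518 on the log2 scale. After scaling, its level still followed that percentile, at r = -0.864 over 20 arrays. Its level was 10.01, 9.66, 9.74 and 9.43 in the omeprazole rats, 11.32, 10.50, 9.51 and 10.33 at STW5 2 ml/kg, and 9.98, 9.16, 9.36 and 9.54 at 0.5 ml/kg. In untreated rats the values were 9.89, 10.06, 9.43 and 9.03, against 10.16, 9.62, 9.90 and 10.26 in sham rats. The highest value belonged to rat 1 of the STW5 2 ml/kg group, whose Fth1 signal was the highest of all although its array was among the dimmest. Both Fth1 probes, which overlap on the genome, correlated at 0.972. Tax1bp1 (r = 0.915), Exosc6 (0.906) and Dynll2 (0.889) were most like Fth1.

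**Figure D3:**
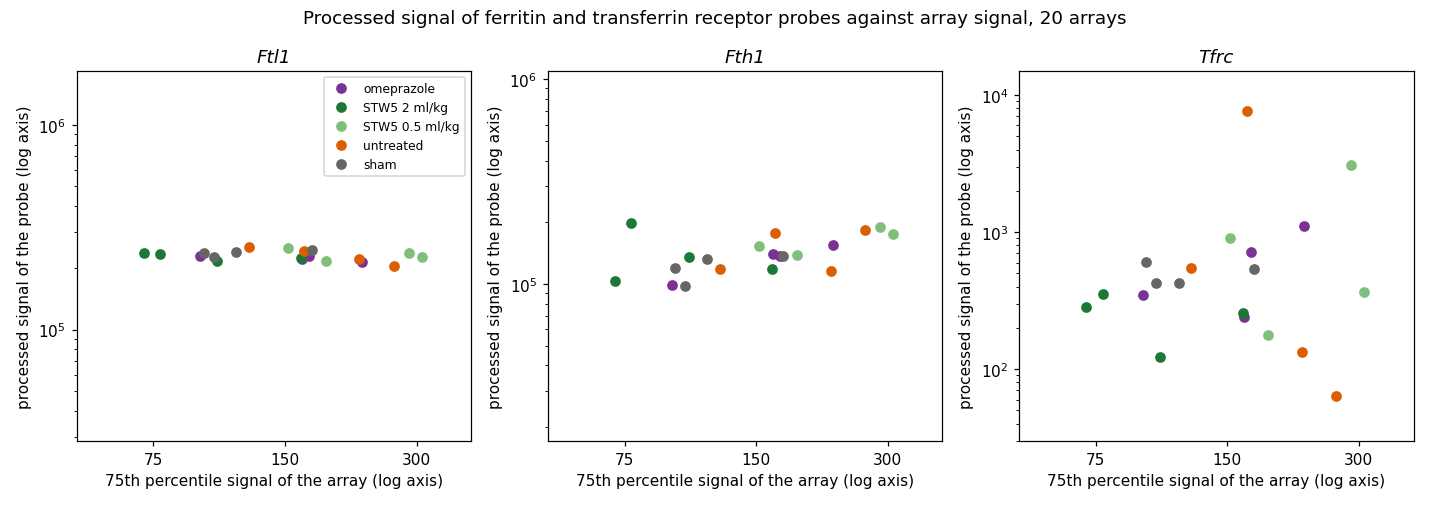
Processed signal of the Ftl1, Fth1 (brightest) and Tfrc (brighter) probes against the 75th percentile signal of the same array, on log axes, for 20 arrays coloured by group. The Ftl1 signal stays between 204000 and 252000 across a 4.31-fold range of array signal, and the Tfrc signal runs from 63.6 to 7660.

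Slc40a1, the only known cellular iron exporter of mammals, had its lowest mean in sham rats. It read 2.09, 2.74, 2.74 and 3.12 in the omeprazole rats, 4.17, 3.33, 2.85 and 3.52 at STW5 2 ml/kg, and 3.68, 3.61, 3.23 and 3.09 at 0.5 ml/kg. Untreated rats read 2.62, 3.20, 4.48 and 2.20, against 2.64, 2.10, 2.67 and 2.58 in sham rats. The highest value was in untreated rat 3, which had the lowest Tfrc. On the brighter probe, given here, all 8 STW5 rats were above all 4 sham rats, which lay on another slide. This was not tested, and the share of all genes so separated was not computed. The other Slc40a1 probe correlated with the brighter one at 0.944. On that dimmer probe, rat 3 given STW5 at 2 ml/kg read 2.46, inside the sham range of 2.09 to 2.65. Pla1a (r = 0.921), Ywhah (0.921) and Mylk (0.909) were most like the brighter probe.

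Aco1, iron regulatory protein 1, which is an aconitase when iron is plentiful, was printed as 10 spots per array and gave the tightest sham values of the set. It read -1.13, -1.26, -1.41 and -1.32 in the omeprazole rats, -1.72, -2.20, -0.97 and -1.92 at STW5 2 ml/kg, and -1.34, -0.50, -1.08 and -1.10 at 0.5 ml/kg. The untreated rats gave -1.40, -0.47, -1.22 and 0.10, against -1.36, -1.30, -1.31 and -1.29 in sham rats. Untreated rat 4 was the highest of all 20 rats, as it was for Slc11a1. The untreated SD was 0.694 and the sham SD 0.0336, with 0.17% of genes below it in sham rats. Among the genes most like Aco1 were Mrpl17 (r = 0.95) and Pla2g15 (0.934).

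The 3 genes that failed the filter gave few readings above background. Tfr2, the hepcidin-linked second receptor, was well above background in untreated rat 2 only. Steap3 was so in untreated rats 2 and 4, and Ireb2, iron regulatory protein 2, in rat 3 given STW5 at 0.5 ml/kg. Their signals ran from 2.97 to 28.7, and no change is given for them.

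By group mean, the order was sham, omeprazole, STW5 0.5 ml/kg, STW5 2 ml/kg, untreated for Tfrc, and sham, omeprazole, STW5 2 ml/kg, STW5 0.5 ml/kg, untreated for Slc11a2. For Slc11a1 it was untreated, omeprazole, STW5 0.5 ml/kg, sham, STW5 2 ml/kg, and for Aco1 untreated, STW5 0.5 ml/kg, omeprazole, sham, STW5 2 ml/kg. Both ferritins ran from STW5 2 ml/kg through sham, omeprazole and untreated to STW5 0.5 ml/kg, and Slc40a1 from STW5 2 ml/kg and 0.5 ml/kg through untreated and omeprazole to sham. Of the 28 gaps between neighbours in these orders, 1 exceeded the larger SD of the pair: Slc11a1 averaged 0.67 ± 0.657 at STW5 0.5 ml/kg and -0.22 ± 0.166 in sham rats (SD, n = 4 each). That pair of groups lay on different slides and was not tested, and the share of such gaps over all genes was not computed.

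The first question was how the iron genes of blood differ when reflux esophagitis is left untreated, with sham surgery as the control. Of the 7 measured genes 3 were higher and 4 lower in untreated rats (37.9% of all genes were higher), and none passed an adjusted p of 0.05 (limma, Benjamini-Hochberg over 15260 genes), where 0.00655% of all genes did. At an unadjusted p below 0.05 there was 1 gene, Slc11a1, against 18.3% of all genes. No member separated the groups without overlap, against 3.05% of all genes. Slc11a1 averaged 0.95 ± 1.48 in untreated and -0.22 ± 0.166 in sham rats (SD, n = 4 each), a log2 change of 1.17 ± 0.536 (SE) with a limma adjusted p of 0.269. Slc11a2 averaged 0.78 ± 1.36 in untreated and 1.76 ± 0.158 in sham rats on its brightest probe, a change of -0.98 ± 0.488 (limma adjusted p = 0.276). Its other probes gave changes of -0.30 and 0.012. The Tfrc change of -0.83 had a 95% interval from -3.19 to 1.53, so neither a large fall nor a large rise of its mean was distinguishable with 4 rats per group. The dimmer Tfrc probe gave a change of -0.024.

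The other changes in untreated rats were -0.38 for Fth1, -0.70 for Ftl1, 0.63 for Slc40a1 and 0.56 for Aco1, with limma adjusted p from 0.287 to 0.452. The median of the 7 was -0.38, beside -0.19 over all genes. Single untreated rats moved most of these values, with none passing in any such case. The Tfrc change was -2.27 without untreated rat 2, 0.27 without rat 3 and -0.18 without rat 4. Slc11a2 was -1.50 without untreated rat 2 and -0.52 without rat 3, and Slc40a1 was 0.18 without rat 3. Without untreated rat 4, Slc11a1 was 0.69, Aco1 0.28 and Fth1 -0.19. With limma's array weights, which gave the 4 untreated arrays 0.3, 0.234, 0.316 and 1.88, 5 members passed (Slc11a2, Slc11a1, Fth1, Ftl1 and Aco1), against 25.3% of all genes. The weighted Slc40a1 change was 0.03. With quantile normalization Fth1 was 0.32 and Ftl1 -0.0064, and with spike-in scaling Fth1 was 0.18, Ftl1 -0.14, Slc11a2 -0.42, Tfrc -0.27, Slc40a1 1.19 and Aco1 1.13.

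Markers of blood cells moved alongside. All 16 tested reticulocyte and erythroid genes were lower in untreated rats, 0 of them past the adjusted threshold, with a median of -1.12. The erythroid score, the mean marker level relative to the array's median, was 0.407, 0.499, -1.47 and -1.42 in the untreated rats, against 0.26 to 0.912 in sham rats. The rats with the lowest erythroid score, untreated 3 and 4, were those lowest in Tfrc and Slc11a2. Their arrays had 75th percentile signals of 266 and 222, against 97.8 to 173 in sham rats. Hba-a1, among the 16 erythroid genes, had a level that followed its array's 75th percentile at r = -0.992 on both probes. The part of the array signal in the erythroid score was not tested. Monocyte and macrophage genes were higher in 8 of 13 and neutrophil genes in 12 of 15, with medians of 0.53 and 0.74. T cell genes were lower in 10 of 11 (median -1.18), B cell genes lower in 10 of 10 (-0.91) and platelet genes higher in 8 of 10 (0.33). In whole blood, fewer cells of a type and less RNA per cell cannot be told apart.

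Over the 20 arrays, 28 relations were computed between the 7 genes and 3 cell scores or the array signal, with 100000 permutations each and p adjusted over the 28. All 20 arrays were shuffled without regard to group or slide, so differences between groups or slides enter these p values. No p was computed for the relations within groups. Slc11a2 followed the erythroid score at Pearson r = 0.849 and Spearman rho = 0.836 (permutation p = 1e-05 and 2e-05, adjusted 5.6e-05 and 0.000112). Its r was 0.854 within groups and 0.744 once the 2 arrays with the most extreme score were left out. With the log2 of the array's 75th percentile signal, Slc11a2 had r = -0.499 and rho = -0.489 (adjusted permutation p = 0.05 and 0.0596), and -0.62 within groups, so the array signal moved with it too. The value 1e-05 is the smallest that these permutations can give. Tfrc followed the erythroid score at r = 0.608 and rho = 0.555 (permutation p = 0.00376 and 0.0124, adjusted 0.0105 and 0.0315). Within groups the Tfrc relation was 0.641, but without the 2 extreme arrays, untreated rats 3 and 4, it was 0.361, so it rests largely on them.

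Slc11a1 followed the monocyte and macrophage score at r = 0.933 and rho = 0.922 (permutation p = 1e-05 for both, adjusted 5.6e-05 and 9.33e-05). Its r was 0.933 within groups, 0.881 without the 2 most extreme arrays and 0.92 without untreated rat 2. It was also higher with a higher neutrophil score, at r = 0.715 and rho = 0.728 (permutation p = 5e-04 and 0.00056, adjusted 0.00156 and 0.00174). With the log2 of the array's 75th percentile signal its r was 0.532 and rho 0.561 (permutation p = 0.0158 and 0.0112, adjusted 0.0339 and 0.0313), and 0.277 within groups. Aco1 followed the monocyte score at r = 0.813 and rho = 0.765 (permutation p = 2e-05 and 0.00017, adjusted 9.33e-05 and 0.00068). It followed the 75th percentile signal too, at r = 0.719 and rho = 0.737 (permutation p = 0.00026 and 0.00041, adjusted 0.00104 and 0.00143). Aco1 was lower with a higher erythroid score (r = -0.548 and rho = -0.507, adjusted permutation p = 0.0265 and 0.0562), and Ftl1 with a higher monocyte score (r = -0.586 and rho = -0.501, adjusted permutation p = 0.0165 and 0.0572). For Slc40a1, no relation with the 4 measures had an adjusted p below 0.05. Ftl1 and Fth1 followed the erythroid score at r = 0.84 and 0.696 (permutation p = 1e-05 and 0.00038, adjusted 5.6e-05 and 0.00133) and rho = 0.862 and 0.764. With the 75th percentile, relative to the array's median, their r was -0.993 and -0.809, so that part of these relations cannot be told apart from the array signal. The part of cell composition in the group differences was not tested.

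**Figure D4:**
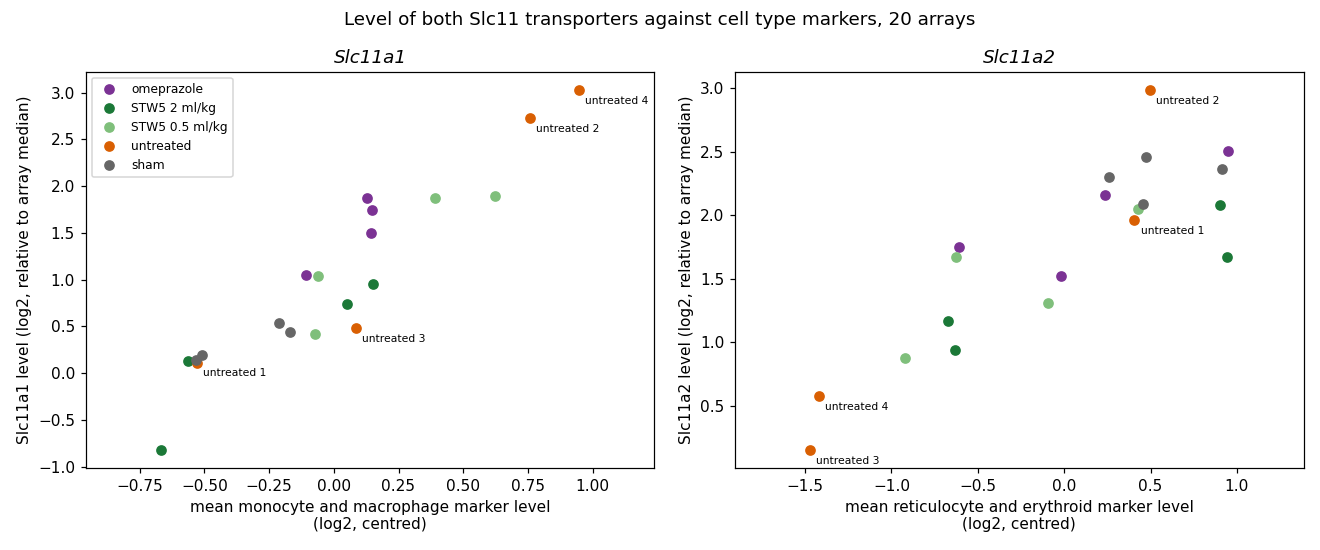
Level of Slc11a1 (left) and Slc11a2 (right), log2 relative to the array's median over all genes, against the mean centred log2 level of 13 monocyte and macrophage markers or 16 reticulocyte and erythroid markers, for 20 arrays coloured by group. Both transporters are higher where their marker score is higher (r = 0.933 and 0.849), with untreated rats 2 and 4 highest for Slc11a1 and untreated rats 3 and 4 lowest for Slc11a2.

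Omeprazole was compared with no treatment in rats with esophagitis. Of the 7 genes 4 were higher and 3 lower in omeprazole rats (58.3% of all genes were higher), and none passed (limma, adjusted p below 0.05), where 4.17% of all genes did. At an unadjusted p below 0.05 there were 0 members, against 15.5% of all genes, and none separated the groups, against 7.28%. The smallest p belonged to Aco1, which averaged -1.28 ± 0.116 in omeprazole and -0.75 ± 0.694 in untreated rats (SD, n = 4 each), a change of -0.53 ± 0.304 (limma adjusted p = 0.408). It was -0.25 without untreated rat 4. The others lay between -0.45 and 0.58, with a median over all 7 of 0.11 beside 0.10 for all genes. Array weights gave 2 members past the threshold, Slc11a2 at 1.16 and Aco1 at -1.02, against 19.1% of all genes. Erythroid genes were higher in 15 of 16 (median 0.575), T cell genes in 9 of 11 (0.96) and B cell genes in 9 of 10 (0.49). Neutrophil genes were higher in 12 of 15 (0.55), and platelet genes lower in 9 of 10 (-0.37). Of 13 monocyte and macrophage genes, 6 were higher and 7 lower (median -0.0025), with 1 past the adjusted threshold, lower in omeprazole rats. Their part in these differences was not tested.

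The omeprazole rats were more alike than the untreated ones. The SD of Slc11a1 was 0.325 in omeprazole rats and 1.48 in untreated rats, that of Tfrc 0.783 and 3.37, and that of Aco1 0.116 and 0.694. Over all genes the median SD was likewise lower, 0.341 in omeprazole and 0.648 in untreated rats, and the difference in spread was not tested.

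STW5 at 2 ml/kg was set against no treatment. Of the 7 genes 5 were higher and 2 lower (60.2% of all genes were higher), and none passed an adjusted p of 0.05, where 0% of all genes did (limma). Of the members 4 had an unadjusted p below 0.05, against 23.8% of all genes, and none separated the groups, against 4.01%. Aco1 averaged -1.70 ± 0.526 at STW5 2 ml/kg and -0.75 ± 0.694 in untreated rats (SD, n = 4 each), a change of -0.95 ± 0.304 (limma adjusted p = 0.104). Slc11a1 averaged -0.24 ± 0.809 at STW5 2 ml/kg and 0.95 ± 1.48 in untreated rats, a change of -1.18 ± 0.536 (limma adjusted p = 0.187), and of -0.71 without untreated rat 4. Aco1 was not well above background in rat 2 given 2 ml/kg, where it was lowest. These SEs rest on a spread shared by all 5 groups. With only the arrays compared, the SE was 0.424 for Aco1 and 0.682 for Slc11a1 (limma adjusted p = 0.363 and 0.468).

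Fth1 and Ftl1 were higher by 0.81 ± 0.321 and 0.91 ± 0.364 at STW5 2 ml/kg (limma adjusted p = 0.142 and 0.146). Of these arrays, those of rats 2 and 1 had the lowest 75th percentiles of the study, 71.3 and 77.7, and the other 2 had 163 and 105. Before scaling, Fth1 signals ran from 103200 to 198200 at STW5 2 ml/kg and from 115500 to 183900 in untreated rats. With spike-in scaling the ferritin changes were -0.20 and -0.11, and with quantile normalization -0.024 and 0.029. The Fth1 change was 0.51 without rat 1 given 2 ml/kg. With only the arrays compared, the SEs of Fth1 and Ftl1 were 0.426 and 0.416 (limma adjusted p = 0.419 and 0.37). Spike-in scaling moved the median of all genes to -0.87, and both ferritins lay above that median. Monocyte and macrophage genes were lower in 9 of 13 and erythroid genes higher in 15 of 16, with medians of -0.45 and 0.91, and their part in these results was not tested. Without untreated rat 1, 3 members passed (Aco1 at -1.17, Slc11a1 at -1.63 and Ftl1 at 1.15), against 20.2% of all genes. Without STW5 2 ml/kg rat 3, Aco1 and Fth1 passed, against 6.7% of all genes. With array weights Aco1 and Slc11a1 passed, against 5.7% of all genes, and with spike-in scaling the same pair did, against 24.1%.

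STW5 at 0.5 ml/kg was also set against no treatment. Of the 7 genes 3 were higher and 4 lower (53% of all genes were higher), all between -0.28 and 0.33, none at an unadjusted p below 0.05 (5.92% of all genes) and none with separate groups (1.91%). No gene of the array passed the adjusted threshold in limma, 0% of 15260. For the mean of both doses, which does not depend on the dose labels, 5 genes were higher and 2 lower (60.6% of all genes were higher), with changes between -0.73 and 0.36. Aco1 averaged -1.35 over the STW5 rats and -0.75 in untreated rats, a change of -0.60 ± 0.263, at an unadjusted p below 0.05 where 9.54% of all genes were, but with a limma adjusted p of 0.503. Without untreated rat 4 the change was -0.32. Array weights made Aco1 pass at -1.13, against 1.66% of all genes. For the mean, 0% of all genes passed without weights and 0.0786% separated the groups, none of them a member.

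The STW5 doses were compared within their slide. Of the 7 genes 4 were higher and 3 lower at 2 ml/kg than at 0.5 ml/kg (60% of all genes were higher), none passed, as for 0% of all genes (limma), and none separated the groups, against 11% of all genes. The members with an unadjusted p below 0.05 were 3 of 7, against 26.6% of all genes. Ftl1 averaged 11.17 ± 0.579 at 2 ml/kg and 10.02 ± 0.528 at 0.5 ml/kg (SD, n = 4 each), a change of 1.15 ± 0.364 (limma adjusted p = 0.096). Fth1 changed by 0.90 ± 0.321 and Aco1 by -0.70 ± 0.304 (limma adjusted p = 0.111 and 0.16). The 75th percentile was 77.7, 71.3, 163 and 105 at 2 ml/kg, against 152, 308, 288 and 186 at 0.5 ml/kg, so that a constant signal gives a higher level at 2 ml/kg. Neutrophil genes were lower at 2 ml/kg in 15 of 15 (median -0.67), monocyte and macrophage genes lower in 9 of 13 (-0.73) and erythroid genes higher in 15 of 16 (0.67), and their part in these differences was not tested. Ftl1 alone passed with array weights (8.42% of all genes), without the filter (19%) and with the replicate block (3.5%), and with Fth1 once rat 3 at 2 ml/kg was left out (5.37%). With quantile normalization the Ftl1 difference was 0.078. With spike-in scaling it was -0.12 and that of Fth1 -0.36, and the 4 members that passed were Slc11a2, Slc11a1, Slc40a1 and Aco1, all lower at 2 ml/kg, as 50.8% of all genes passed. The titles and the design text disagree on which of these groups had the higher dose, and exchanging them turns every sign.

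**Figure D5:**
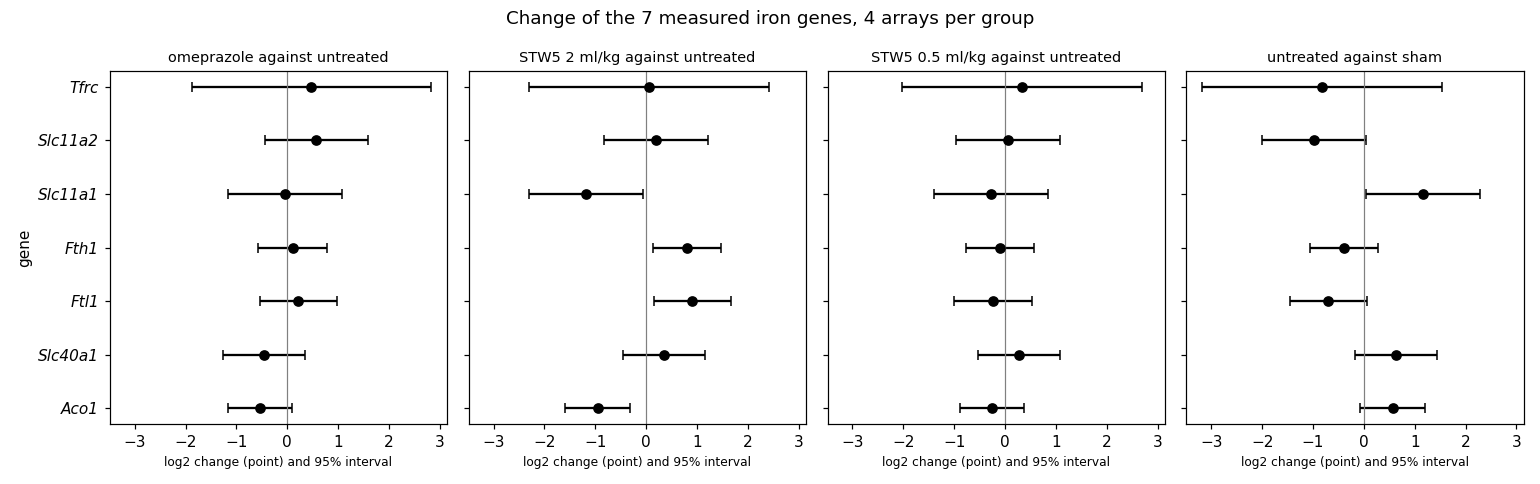
Log2 change (point) and 95% confidence interval from limma for the 7 measured iron genes in 4 comparisons of 4 against 4 arrays, with no change at the vertical line. Intervals are widest for Tfrc, and the 4 that leave out 0 at STW5 2 ml/kg against untreated, and that of Slc11a1 in untreated against sham, had adjusted p above 0.05. All intervals of a gene use a spread shared by the 5 groups, although untreated rats varied more than the others over all genes.

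Other genes of iron and heme handling were followed as a list of 62, of which 57 were on the array and 44 were tested. None passed in any of the 6 comparisons (limma, adjusted p below 0.05). In untreated against sham rats 23 were higher and 21 lower, where 37.9% of all genes were higher, with a median of 0.09 beside -0.19 for all genes. At an unadjusted p below 0.05 there were 20 of 44, beside 18.3% of all genes. The smallest p values were those of Id1, a target of BMP signalling, Slc48a1, which exports heme from lysosomes, and Tf, plasma transferrin. Slc48a1 read 4.23, 3.62, 1.51 and 2.25 in untreated rats, against 4.63, 4.37, 4.25 and 4.74 in sham rats, without overlap. Its change was -1.60 ± 0.508 (limma adjusted p = 0.243). Tf read 4.93, 8.46, 6.12 and 6.47 in untreated rats, against 4.14, 5.06, 4.97 and 5.33 in sham rats, a change of 1.62 ± 0.538 (limma adjusted p = 0.243). As with Tfrc, its highest value was in untreated rat 2. Id1 changed by 2.06 ± 0.587, with the probe above background in 3 of 4 untreated rats and 1 of 4 sham rats.

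Against untreated rats, 4 of the 44 had an unadjusted p below 0.05 for omeprazole, beside 15.5% of all genes, 5 for STW5 2 ml/kg, beside 23.8%, and 4 for STW5 0.5 ml/kg, beside 5.92%. The first 2 counts are a smaller share than that of all genes. Slc39a14, a plasma membrane importer of zinc and iron, was well above background in 3 of 4 untreated rats, in 0 of 4 omeprazole rats and in 1 of 4 rats at STW5 0.5 ml/kg. Blvrb, the biliverdin reductase of red cells, changed by 1.47 ± 0.545 with omeprazole and Slc48a1 by 1.11 ± 0.508 (limma adjusted p = 0.176 and 0.297). At STW5 2 ml/kg the smallest p values were those of Glrx5, needed for iron-sulfur clusters and heme synthesis (1.04), Tmprss6, which restrains hepcidin in the liver (0.96), and the mitochondrial ferritin Ftmt (0.94), with limma adjusted p from 0.141 to 0.158. Before scaling, Tmprss6 signals were 28.7 to 49.5 at STW5 2 ml/kg and 27.1 to 52.9 in untreated rats, and those of Ftmt 14 to 19.9 and 10.9 to 24, so the difference in level is mostly that of the 75th percentile. Ftmt was well above background on 13 of 20 arrays. At 0.5 ml/kg, after Slc39a14, they were those of Slc22a17, a receptor for lipocalin-bound iron (-0.52), and Skp1, a ubiquitin ligase subunit (0.75). Between the doses, Tmprss6 differed by 1.47 ± 0.389 (limma adjusted p = 0.072), Ftmt by 1.19 ± 0.393 and Steap4, a metalloreductase, by -0.97 ± 0.483 (limma adjusted p = 0.1 and 0.201). The signals at 0.5 ml/kg, 24 to 34.9 for Tmprss6 and 14.9 to 16.9 for Ftmt, overlapped those at 2 ml/kg given above.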

How the data were processed

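Blood RNA of 20 rats was measured on 1-colour arrays. Per the file headers, the deposited scanner files hold spot intensity from Agilent Feature Extraction 10.7.3.1, background-subtracted and detrended by the authors' software, without scaling between arrays. The value table deposited by the authors is a ratio, the processed signal over an array constant (from comparing its columns with the scanner files). Log2 levels were computed here from the deposited intensity: spots of a probe were averaged without control spots and outlier flags, and each array's 75th percentile was subtracted. Filtering for signal well above background, at least 4 arrays, kept 17236 probes. The brightest probe stood for its gene (15260 genes), and 18005 of 30367 probes were named by accession.

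The 5 group means entered a single limma fit (limma 3.58.1, R 4.3.3, data.table version 1.17.8) with 15 residual and 4.23 prior degrees of freedom, two-sided, Benjamini-Hochberg adjusted over all genes. The median SE was 0.351, and the number of arrays limits the precision. Relations used two-sided permutation tests. The limma fit was checked for untreated against sham on simulated data, with independent noise and the same spread of a gene in every group. The median SD was 0.648 in untreated and 0.303 in sham rats, so that check does not cover unequal spread. The permutation tests were not checked in this way. The labels number the replicates of each group, and each array was treated as a separate rat.

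The members and lists were chosen with earlier results of these data known. All members were named. Of other iron genes, the 3 with the smallest p per comparison were named, and 3 most alike genes per member, of which 1 is not reported here. Single changes are given for all members in untreated against sham and elsewhere where the unadjusted p was below 0.1, a choice made after seeing the values. Some list genes (Cd163, Lcn2) also stand in marker lists. Alternatives were quantile and spike-in scaling (7 probe sets), normexp (offset 50), no filter, mean of probes, only the arrays compared, array weights, replicate block, the value table, exchanged STW5 groups, and leaving out each array.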

Additional observations from a re-analysis of the deposited data

Results flagged for a closer look

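Of 35 groups of 4 rats examined for a value far from the other 3 (7 genes in 5 groups), 1 held one: Slc40a1 in sham rat 2 read 2.10, while the other 3 sham rats read 2.58 to 2.67. Its gap to the nearest value took up 0.836 of the group's range, above Dixon's critical ratio for 4 values. Chance flags about 1 in 20 such groups.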

How the results depend on the processing

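The count of members past the adjusted threshold was 0 in every comparison of the main fit. It changed in most comparisons with array weights. In some it also changed with spike-in scaling, no filter, the replicate block or an array left out. Weighted, 5 members passed in untreated against sham, 2 in omeprazole and 2 in STW5 2 ml/kg against untreated, 1 for the mean of both doses and 1 between the doses, with 3865, 2922, 870, 254 and 1285 of all genes, and 164 genes but 0 members at STW5 0.5 ml/kg. Spike-in scaling gave 2 members and 3684 genes at STW5 2 ml/kg against untreated, 4 members and 7745 genes between the doses, 410 genes for omeprazole in place of 637, and 0 in place of 1 for untreated against sham. It moved the median of all genes to 0.37 in untreated against sham, -0.87 at STW5 2 ml/kg against untreated and -1.085 between the doses.

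Between the doses, all genes passing numbered 50 with quantile normalization, 2311 with normexp, 5004 and 1 member without a filter, and 99 with the value table. In untreated against sham they numbered 0 with quantile normalization, normexp, no filter, only the arrays compared and the replicate block. Only the arrays compared gave 390 for omeprazole, and the value table gave 1 at STW5 0.5 ml/kg. Relative to all genes, the members' median was 0.39 with quantile normalization in untreated against sham, 0.59 with array weights at STW5 2 ml/kg against untreated, and -0.61 without a filter between the doses. Members not called changed sign, and the causes were not tested. In untreated against sham, Fth1 was 0.32 with quantile normalization and 0.18 with spike-in scaling. At STW5 2 ml/kg against untreated, Fth1 was -0.024 with quantile normalization, -0.20 with spike-in scaling, -0.027 with the value table and -0.093 with exchanged doses, and Ftl1 was -0.11, -0.17 and -0.24 under the last 3. Between the doses, Fth1 was -0.061 with quantile normalization, -0.36 with spike-in scaling and -0.75 with the value table, and Ftl1 -0.12 with spike-in scaling and -0.996 with the value table, where Aco1 was 0.86. Exchanged doses gave -0.90 for Fth1, -1.15 for Ftl1 and 0.70 for Aco1 by construction, and the value table's STW5 columns follow the other dose's arrays.

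Leaving out each array in turn, all genes passing ran from 0 to 1833 in untreated against sham, from 472 to 1167 for omeprazole, from 0 to 3086 at STW5 2 ml/kg, from 0 to 5 at 0.5 ml/kg, from 0 to 136 for the mean of doses and from 0 to 820 between the doses. The highest values came without untreated rat 1 or, between the doses, without rat 3 at 2 ml/kg. Members passing ran from 0 to 3 at STW5 2 ml/kg and from 0 to 2 between the doses, and stayed 0 elsewhere. Their median relative to all genes ran from -0.41 to 0.33 in untreated against sham, from -0.43 to 0.59 at STW5 2 ml/kg and from -0.39 to 0.34 for the mean of doses. Tfrc in untreated against sham ran from -2.27 to 0.27.

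The replicate block gave 534 genes and 1 member, Ftl1 (adjusted p = 0.0492), between the doses, 1 gene at STW5 0.5 ml/kg, and changed no other member's call. Arrays with the same replicate number in different groups correlated in their deviations at -0.44 to 0.59 (median 0.09, 40 pairs). Those of other numbers correlated at -0.65 to 0.59 (median -0.04, 120 pairs). These ranges overlap widely, so they do not settle whether replicate numbers pair the rats. Dim genes are limited most: Tfr2, Steap3 and Ireb2 have no change, and Aco1 had 1 array not well above background.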
